A study of Homo sapiens with 8 samples.

Results

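The 6 genes followed here were chosen by name as nuclear-retained or structural noncoding RNAs that both count tables list: the long noncoding RNAs MALAT1, NEAT1 and KCNQ1OT1, and the short structural RNAs RMRP, RPPH1 and RN7SK. They are 6 of the 60664 gene identifiers in each table. The tables hold selective ribosome profiling of U2OS cells, a human osteosarcoma line, in which ribosomes bound to a tagged chaperone were isolated and their ribosome-protected fragments sequenced. In the CCT4-Halo line the HaloTag was inserted into a loop of endogenous CCT4, a subunit of the chaperonin TRiC, and in the PFDN4-Halo line it was placed at the C terminus of endogenous PFDN4, a subunit of prefoldin (PFD). Each line is a single clone. Before lysis, cells of both lines received cycloheximide (100 µg/ml, 1 min) and the crosslinker DSP (2 mM, 30 min), and each line gave an input group, ribosomes before the pulldown, and a pulldown group, ribosomes recovered with the HaloTag, of 2 biological replicates each. The 8 libraries had no pulldown from an untagged line among them, so counts that any bead would carry cannot be told apart from counts carried by the chaperone.

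Ribosome profiling is meant to read translated mRNA, and an RNA that stays in the nucleus should meet few cytoplasmic ribosomes, so its fragments serve as a marker of nuclear RNA in a preparation. MALAT1 is an abundant RNA of nuclear speckles, and NEAT1 is the RNA around which paraspeckles are built. KCNQ1OT1 is an imprinted RNA that silences neighbouring genes from the paternal chromosome. RMRP and RPPH1 are the catalytic RNAs of RNase MRP, which processes ribosomal RNA precursors, and of RNase P, which trims the 5′ ends of tRNA precursors. RN7SK is the scaffold of the 7SK particle, which holds the transcription elongation factor P-TEFb inactive.

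MALAT1, NEAT1 and KCNQ1OT1 were counted, whereas RMRP, RPPH1 and RN7SK had 0 counts in all 8 libraries. The 3 uncounted RNAs are given here as GRCh38 has them, 5′ to 3′, because whether a short fragment of each can be placed once in the genome bears on those zeros. Capitals mark bases inside at least 1 window of 29 bases, about the length of a ribosome footprint, that occurs exactly once on chromosomes 1 to 22, X, Y and the mitochondrial genome. RMRP is shown whole (chr9:35657754-35658017, minus strand, 264 bases), and the first 300 bases are shown of RPPH1 (chr14:20343108-20343407, minus strand, of 333 bases) and of RN7SK (chr6:52995621-52995920, plus strand, of 328 bases).
RMRP: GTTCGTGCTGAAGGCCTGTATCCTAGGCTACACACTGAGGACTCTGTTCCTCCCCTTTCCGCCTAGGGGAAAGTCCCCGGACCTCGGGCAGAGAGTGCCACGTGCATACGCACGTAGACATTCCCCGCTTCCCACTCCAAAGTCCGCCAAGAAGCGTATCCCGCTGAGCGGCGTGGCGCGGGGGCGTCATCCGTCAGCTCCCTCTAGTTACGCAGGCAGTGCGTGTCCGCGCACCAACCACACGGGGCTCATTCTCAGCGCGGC
RPPH1: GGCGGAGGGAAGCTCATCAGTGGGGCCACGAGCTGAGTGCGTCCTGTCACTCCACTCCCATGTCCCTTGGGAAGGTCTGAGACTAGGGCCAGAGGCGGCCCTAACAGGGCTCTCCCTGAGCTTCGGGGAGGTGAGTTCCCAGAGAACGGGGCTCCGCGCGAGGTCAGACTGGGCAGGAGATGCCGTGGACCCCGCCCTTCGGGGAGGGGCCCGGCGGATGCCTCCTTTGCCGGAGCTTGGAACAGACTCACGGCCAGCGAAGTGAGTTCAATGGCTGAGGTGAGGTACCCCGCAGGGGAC
RN7SK: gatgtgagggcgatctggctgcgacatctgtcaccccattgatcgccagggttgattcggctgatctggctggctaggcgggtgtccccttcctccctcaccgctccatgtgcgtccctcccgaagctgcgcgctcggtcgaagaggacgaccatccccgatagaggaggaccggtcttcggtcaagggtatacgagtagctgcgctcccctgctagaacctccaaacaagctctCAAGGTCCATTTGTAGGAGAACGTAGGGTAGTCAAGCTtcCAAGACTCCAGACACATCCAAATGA
RMRP and RPPH1 are in capitals throughout, and only 63 of the 300 bases of RN7SK are, all of them toward the 3′ end.

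Among the windows of 29 bases in RMRP, 233 of 236 (98.73%) were found once, and in RPPH1 all 305 were. In RN7SK 25 of 300 windows (8.333%) were found once, and a window had up to 33 exact copies in the genome. The alignments kept by the study were unique ones, so most RN7SK fragments of this length could not have been counted to RN7SK, whereas nearly all of RMRP and RPPH1 could have been placed. The whole of RPPH1 also lies in exons of ENSG00000259001 on the same strand, and the whole of RN7SK in a same-strand gene named 7SK, ENSG00000202198, in GENCODE release 44, and the counting mode used gives no count to a read that lies in exons of more than 1 gene. RMRP had no such overlap with another gene of the tables. The reads had also been filtered against a library of noncoding RNAs that included rRNA and whose other members are not given in the sources used here. With the exons of release 44, no read within RPPH1 or RN7SK could be counted to either, whatever the level of the RNA. Whether the authors' annotation had the same exons is not given in the sources used here. The part of the filter, of the copies and of the overlaps in the zeros was not tested.

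The 3 counted RNAs lie on chromosome 11 and are long. MALAT1 (ENSG00000251562, chr11:65497640-65508073, plus strand) has 10434 exon bases in GENCODE release 44, of whose 29-base windows 97.4% were found once. NEAT1 (ENSG00000245532, chr11:65422774-65445540, plus strand) has 22767 exon bases, of whose windows 94.3% were found once. KCNQ1OT1 (ENSG00000269821, chr11:2597308-2700003, minus strand) has 92625 exon bases, of whose windows 89.42% were found once. RMRP, RPPH1 and RN7SK have the identifiers ENSG00000277027, ENSG00000277209 and ENSG00000283293, and the annotation calls RMRP and RPPH1 ribozymes and RN7SK an snRNA. The strand setting of the counting is not given in the sources used here, so reads of an antisense partner cannot be told apart. TALAM1, the antisense RNA of MALAT1, covers 77.83% of the exon bases of MALAT1 in release 44 and has no row in the tables.

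MALAT1 was the most heavily counted of the 6 in every library and was higher in the TRiC pulldown. TRiC inputs 1 and 2 had 820 and 434 counts of it, against 2500 and 1623 in TRiC pulldowns 1 and 2. After scaling by library size with edgeR's TMM factors the inputs stood at 29.6 and 14.3 CPM (counts-per-million) and the pulldowns at 75.0 and 64.5 CPM. Both pulldowns lay above both inputs, by 2.18-fold for the closest pair and 5.23-fold for the farthest. The share of all genes that separate in this way was not counted, here or for the separations given below. The group means were 22.0 ± 10.8 CPM in input and 69.7 ± 7.47 CPM in pulldown (SD, n = 2). The fitted log2 fold change was 1.67 ± 0.20 (SE), or 3.19-fold, with an adjusted p of 3.17e-05 in edgeR's quasi-likelihood test.

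NEAT1 moved the same way as MALAT1 in the CCT4-Halo line. The TRiC inputs had 233 and 129 counts of it against 581 and 484 for the pulldowns, or 8.40 and 4.26 CPM against 17.4 and 19.2 CPM. The groups did not overlap, and the closest pulldown and input differed by 2.07-fold. The means were 6.33 ± 2.93 CPM and 18.3 ± 1.26 CPM (SD, n = 2), and the log2 fold change of 1.54 ± 0.23 (SE) had an adjusted p of 0.000258 in edgeR's test. KCNQ1OT1 had too few counts for a like statement. Its TRiC inputs had 12 and 7 counts against 39 and 5 for the pulldowns, so the groups overlapped, and its log2 fold change of 1.06 ± 0.92 (SE) had an adjusted p of 0.46 in edgeR's test. The 39 counts of pulldown replicate 1 set its direction, since without that library the value was -0.73.

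Of the 6 RNAs, 3 passed the filter on low counts in the CCT4-Halo line and 2 were called higher at an adjusted p under 0.05. Of all 17934 genes tested there, 1550 (8.64%) were called higher and 1894 (10.6%) lower. The fits of each line alone estimate the spread from that line's 4 libraries. When all 8 libraries shared a single estimate, the log2 fold changes were 1.67 for MALAT1 and 1.53 for NEAT1 and neither was called, with adjusted p-values in edgeR's test of 0.244 and 0.673. Over the alternatives with 2 libraries per group, the adjusted p ran from 4.01e-46 to 0.244 for MALAT1 and from 5.46e-14 to 0.673 for NEAT1. These ends came from edgeR's test, the low ones with no filter on low counts. Fits that leave out a library have 1 library in a group and take the spread from the others, so they are read for effect size only.

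In the PFDN4-Halo line both RNAs lay lower in the pulldown, without passing the test. For MALAT1 the PFD inputs held 1087 and 307 counts against 264 and 499 after the pulldown, or 56.4 and 29.6 CPM against 28.5 and 17.5 CPM. Both pulldowns lay below both inputs, but the closest pair stood at a ratio of 0.962. The means were 43.0 ± 18.9 CPM and 23.0 ± 7.74 CPM (SD, n = 2), and the log2 fold change was -0.91 ± 0.42 (SE), with an adjusted p of 0.731 in edgeR's test. Without PFD pulldown replicate 1, the shallowest library, the value was -1.31, in a fit with 1 library in the pulldown group. Over the alternatives with 2 libraries per group, the adjusted p ran from 0.212 in DESeq2 to 0.746 in edgeR's test.

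For NEAT1 the PFD inputs held 68 and 30 counts against 3 and 47 after the pulldown, or 3.53 and 2.89 CPM against 0.323 and 1.65 CPM. The pulldowns again lay below the inputs and differed from each other by more than the inputs did. The log2 fold change was -1.67 ± 1.62 (SE), with an adjusted p of 0.934 in edgeR's test. KCNQ1OT1, with 19 and 0 counts before and 3 and 0 after the PFD pulldown, did not pass the filter. Its 0 counts allow, at 3 counts of the library total, up to 0.293 CPM of the library total in PFD input replicate 2 and 0.105 in PFD pulldown replicate 2. Thus 2 of the 6 RNAs were tested in this line and 0 were called, where 7 of 14111 genes (0.0496%) were called higher and 27 (0.191%) lower, and 978 genes had an unadjusted p under 0.05. DESeq2 also called 0 of the 6. The common dispersion, edgeR's measure of the squared variation between replicates, was 0.331 in this line and 0.0153 in the CCT4-Halo line.

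**Figure D1:**
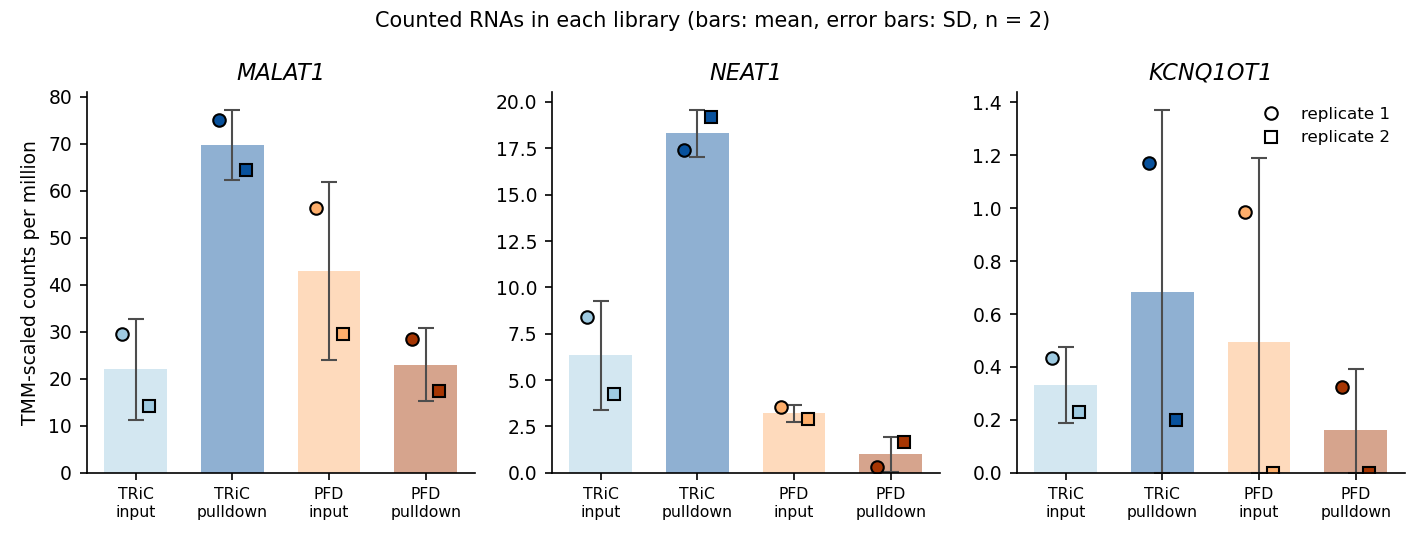
TMM-scaled CPM (vertical axes, 1 scale per panel, from 0) of MALAT1, NEAT1 and KCNQ1OT1 in each group of libraries (horizontal axes). Circles are replicate 1, squares replicate 2, bars the mean and error bars the SD (n = 2, lower arm cut at 0). MALAT1 and NEAT1 lie above input in both TRiC pulldowns and below input in both PFD pulldowns, and the KCNQ1OT1 groups overlap.

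The difference between the 2 pulldowns was tested as an interaction over all 8 libraries. The TRiC change exceeded the PFD change by 2.62 ± 0.59 (SE) on the log2 scale for MALAT1 and by 3.13 ± 1.04 (SE) for NEAT1. Neither passed after adjustment over 18855 genes, with adjusted p-values in edgeR's test of 0.171 and 0.248. Only 7 of those genes (0.0371%) were called in either direction, and 2791, MALAT1 and NEAT1 among them, passed 0.05 before adjustment. KCNQ1OT1 differed by 2.98 ± 2.87 (SE), with an adjusted p of 0.684 in edgeR's test. DESeq2 called the difference for both MALAT1 and NEAT1, with adjusted p-values of 0.00132 and 0.0203. Without PFD pulldown replicate 1 the differences were 2.96 and 2.48, and without PFD pulldown replicate 2 they were 2.36 and 4.91. Over the alternatives with 2 libraries per group, the adjusted p for MALAT1 ran from 5.99e-10 to 0.3, both in edgeR's test. For NEAT1 it ran from 0.0203 in DESeq2 to 0.305 in edgeR's test.

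Per kilobase of exon the order was MALAT1, NEAT1, KCNQ1OT1 in every group mean. For TRiC input the mean levels were 2.10 CPM per kb for MALAT1, 0.278 for NEAT1 and 0.00358 for KCNQ1OT1. For TRiC pulldown they were 6.68, 0.805 and 0.00739 CPM per kb. For PFD, input means were 4.12, 0.141 and 0.00532 CPM per kb, and pulldown means 2.20, 0.0433 and 0.00175. The ratio of MALAT1 to NEAT1 per kilobase stood between 7.32 and 9.39 in all 4 libraries of the CCT4-Halo line, so both RNAs moved there in nearly the same proportion. In the PFDN4-Halo line the ratio was 34.9 and 22.3 for input and 192 and 23.2 for pulldown, the value of 192 resting on 3 counts of NEAT1. The exon length of NEAT1 is that of its long form, so these levels do not tell its isoforms apart.

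Across groups, the MALAT1 level was highest in the TRiC pulldowns (64.5 to 75.0 CPM), above every other library. The TRiC inputs (14.3 to 29.6 CPM) and the PFD inputs (29.6 to 56.4 CPM) touched at the rounded values. The PFD pulldowns (17.5 to 28.5 CPM) overlapped the TRiC inputs and lay below the PFD inputs. For NEAT1 the order was TRiC pulldown, TRiC input, PFD input and PFD pulldown, and no neighbouring groups overlapped. These levels were scaled within each line, so the order across lines also carries that scaling. Together the 6 RNAs made up, relative to library totals without TMM factors, 37.0 and 18.9 CPM of TRiC input and 95.6 and 84.7 CPM of TRiC pulldown. The same sums for PFD were 61.4 and 32.9 CPM before the pulldown and 28.4 and 19.1 CPM after it. MALAT1 held 76.1 to 97.8% of those counts.

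Among the 641 genes annotated as lncRNA that were tested in the CCT4-Halo line, MALAT1 ranked 2nd by mean CPM and 90th by log2 fold change, and NEAT1 ranked 7th and 103rd. Of these 641 genes 49 were called higher (7.64%) and 7 lower, with a median log2 fold change of 0.565. In the PFDN4-Halo line MALAT1 ranked 4th by mean CPM of 196 lncRNAs and 154th by log2 fold change, and NEAT1 64th and 167th. The other nuclear noncoding RNAs on a list drawn up for comparison, 12 of 13 symbols found, had few counts in most cases. The 9 tested had a median log2 fold change of 0.748 against -0.00324 over all genes. Of these 9, 6 were called higher and 0 lower, where 8.64% of all genes tested were called higher and 10.6% lower. The 6 include JPX, which passed the filter on low counts only through its pulldown libraries and so adds nothing to this comparison. As 3 of the 12 did not pass the filter, the count of 6 does not stand for all 12.

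The 6 that were called differed in count and in size of change. FTX and JPX, RNAs of the X-inactivation centre, rose by 2.16 and 4.92 on the log2 scale in edgeR's test (adjusted p = 0.0133 and 0.0162). JPX had 0 and 1 input counts against 18 and 19 pulldown counts, a ratio of 37.9 relative to library totals with an exact 95% interval of 6.39 to 1540 for counting error only. JPX passed the filter on low counts only through its pulldown libraries, so its call as higher was close to fixed on entry. MIAT, a nuclear lncRNA, rose by 1.43 (1.12 and 1.06 CPM in input, 2.97 and 2.90 in pulldown). PVT1, the RNA next to MYC, rose by 0.93, and SNHG14, the host of snoRNAs of the Prader-Willi region, by 0.61. TUG1, which release 44 annotates as protein-coding, rose by 0.31, from 2231 and 2321 counts to 2994 and 2632. The remaining 3 tested, LINC-PINT, HOTAIR and DLEU2, had log2 fold changes of -0.12, -0.88 and 0.75 and were not called. In the PFD pulldown 5 of the list were tested and 0 were called, with a median of -0.444.

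Lists of cytoplasmic lncRNAs and of small structural RNAs were read the same way. Of 5 lncRNAs usually found in the cytoplasm, 2 were tested in the CCT4-Halo line and 0 were called. DANCR had a log2 fold change of 1.54 ± 0.56 (SE) at low counts (22 and 16 in input, 80 and 36 in pulldown) and an adjusted p of 0.0633 in edgeR's test. OIP5-AS1 stood at 0.58 ± 1.04 (SE), and the median of the 2 was 1.06. The list of small structural RNAs held 11 found symbols, of which 6 had counts, and TERC, BCYRN1, RNY4, RN7SL2 and VTRNA2-1 were at 0 in all libraries like RMRP, RPPH1 and RN7SK. The 3 that were tested were vault RNAs, components of the cytoplasmic vault particle, and 2 of them fell in the TRiC pulldown. VTRNA1-1 stood at 23.4 and 18.5 CPM before and 6.66 and 7.75 CPM after the TRiC pulldown, a fall opposite in sign to MALAT1 (log2 fold change -1.54 ± 0.17 SE, adjusted p = 1.61e-05 in edgeR's test). VTRNA1-2 fell by 1.36 (adjusted p = 0.00013 in edgeR's test), and VTRNA1-3 stood at -0.36 and was not called. In the PFD pulldown 0 of the 3 were called, and VTRNA1-1 stood at 0.78.

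**Figure D2:**
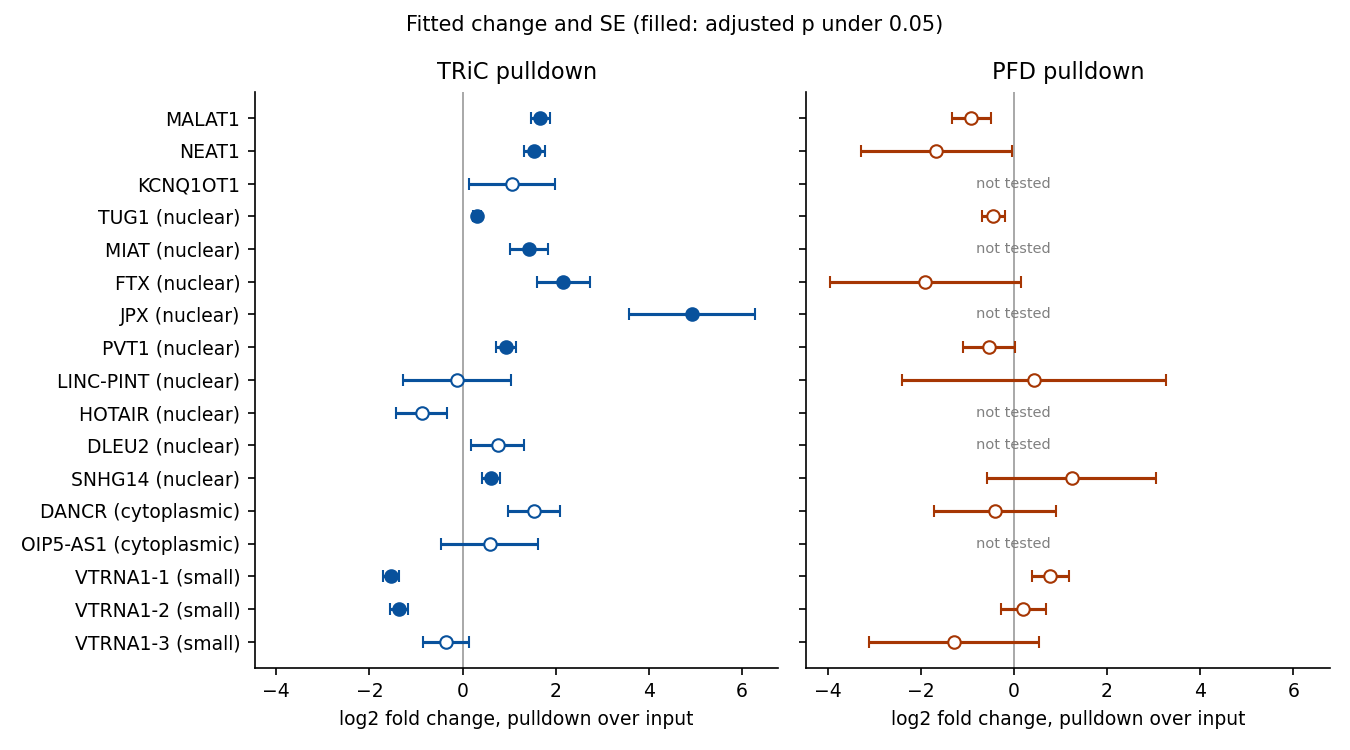
Log2 fold change of pulldown over input (horizontal axes) with its SE for the counted RNAs and for the tested genes of the nuclear, cytoplasmic and small structural RNA lists (vertical axis), in the CCT4-Halo line (left) and the PFDN4-Halo line (right). Filled points have an adjusted p under 0.05. MALAT1 and NEAT1 are filled at 1.67 and 1.54 on the left, and no point is filled on the right.

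Other classes of nuclear RNA were also higher in the TRiC pulldown. Small nucleolar RNAs, which guide modification of ribosomal RNA, made up 0.168 and 0.151% of TRiC input counts against 0.356 and 0.365% of pulldown counts, and 53 of 100 tested were called higher and 1 lower, with a median log2 fold change of 1.44. Genes annotated as small nuclear RNAs, a class that holds RNAs of the spliceosome and also RN7SK, made up 0.127 and 0.105% of input counts. They made up 0.378 and 0.466% of pulldown counts, with 51 of 139 called higher and 5 lower. Of the scaRNAs, which reside in Cajal bodies, 6 of 10 were called higher and 0 lower, with a median of 1.69. Over all genes tested, 8.64% were called higher and 10.6% lower. Only part of the 268 snoRNAs and 685 snRNAs with counts passed the filter, so these calls do not stand for the whole classes. A gene scarce in input could pass the filter through its pulldown libraries alone, which favours a call as higher. The share of counts of each class was higher in both pulldowns than in both inputs. The part of these classes in the values of MALAT1 and NEAT1 was not tested.

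The mitochondrial ribosomal RNAs went the other way, from 0.877 and 0.893% of the TRiC input counts to 0.0763 and 0.0938% of the pulldown counts, with both called lower. In the PFDN4-Halo line snoRNAs made up 0.192 and 0.176% of input and 0.241 and 0.210% of pulldown counts, and snRNAs 0.289 and 0.259% against 0.205 and 0.262%. There 2 of 84 tested snoRNAs were called higher, 2 of 133 snRNAs were called lower, and 0 of 8 scaRNAs were called in either direction. Over all genes tested in that line, 0.0496% were called higher and 0.191% lower. The snRNA shares of input and pulldown overlapped in that line, yet the median log2 fold change of its 133 tested snRNAs was -1.49. The medians there were -0.0234 for snoRNAs and 0.815 for scaRNAs.

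**Figure D3:**
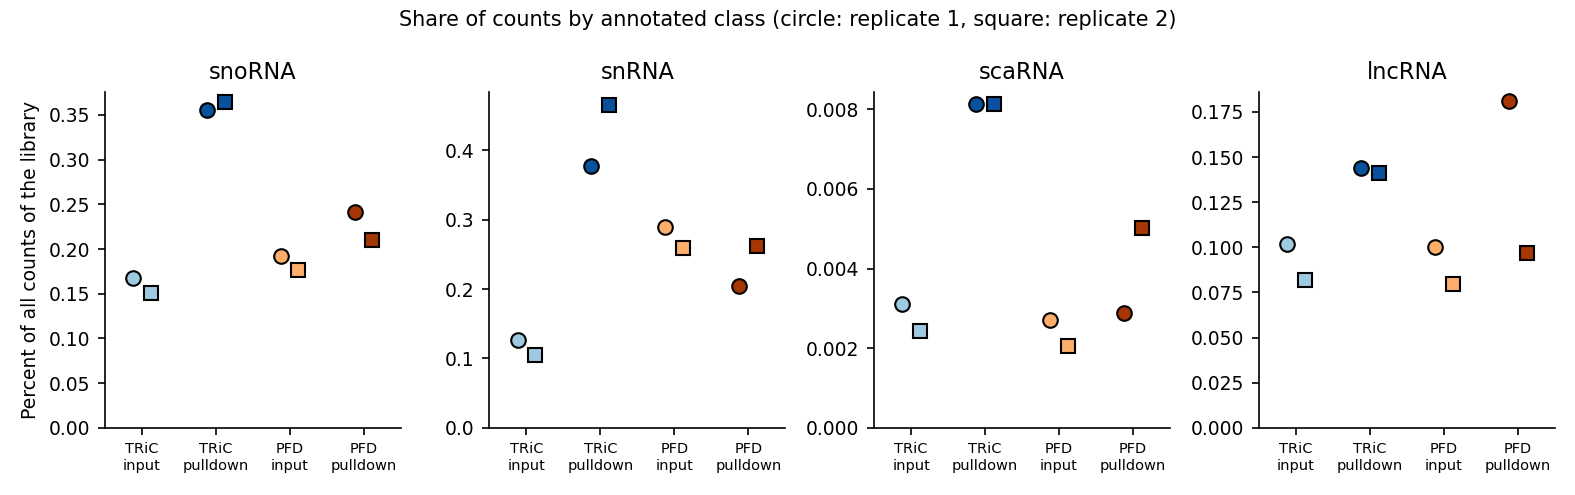
Percent of all counts of a library (vertical axes, from 0, 1 scale per panel) that fell on genes annotated as snoRNA, snRNA, scaRNA and lncRNA, by group (horizontal axes), with circles for replicate 1 and squares for replicate 2. In the CCT4-Halo line both pulldowns lie above both inputs in all 4 panels, and in the PFDN4-Halo line snRNA and lncRNA overlap between input and pulldown.

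Proteins that work with these RNAs are read through footprints on their mRNAs. Of all genes tested in the TRiC pulldown, 10.6% were called lower and 8.64% higher. The protein-coding genes among them had a median log2 fold change of -0.03. Of 11 protein subunits of RNase P and RNase MRP, all tested, 3 fell in the TRiC pulldown (POP4, POP7 and RPP25L, log2 fold changes -0.37, -0.43 and -0.45) and 0 rose, with a list median of -0.263. Of 7 proteins of the 7SK particle and P-TEFb, HEXIM1, the inhibitor that 7SK RNA brings to P-TEFb, fell by 0.42 (adjusted p = 0.0019 in edgeR's test) and 0 rose. Among the paraspeckle proteins reported here, SFPQ, RBM14 and DAZAP1 fell by 0.27, 0.30 and 0.26 and TARDBP rose by 0.35. Of 6 tested genes of the imprinted domain around KCNQ1OT1, CDKN1C, TSSC4 and CD81 fell by 0.63, 0.47 and 0.32. These named changes were all smaller than those of MALAT1 and NEAT1, and 0 of the named genes were called in the PFD pulldown.

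The protein-coding genes within 1 kb of the short RNAs had counts in all 8 libraries. CCDC107 and ARHGEF39, both on the higher-coordinate side of RMRP, had 312 and 343 and 2488 and 2491 counts in the TRiC inputs, PARP2 next to RPPH1 had 2105 and 2394, and GSTA4 next to RN7SK had 935 and 1265. None of them was called in either pulldown. ENSG00000259001, which covers RPPH1, had 9 counts in TRiC input replicate 1 and 0 in the other libraries, and 7SK was at 0 in all 8. KCNQ1, which overlaps KCNQ1OT1 on the opposite strand, had 27 and 6 TRiC input counts, 42 and 19 TRiC pulldown counts, and at most 3 counts in any PFD library.

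Named copies of the uncounted RNAs were looked at after the zeros had been seen. The tables list 300 identifiers with a name of RN7SK copies, of which 59 had counts, and RN7SKP160 (ENSG00000200674) alone held 14007 counts over the 8 libraries, 87.5% of all counts on these copies. RN7SKP160 was not called in either pulldown. It stood at 55.4 and 68.7 CPM before and 48.7 and 81.6 CPM after the TRiC pulldown, overlapping, with a log2 fold change of 0.06 ± 0.16 (SE) and an adjusted p of 0.832 in edgeR's test. The single named copy of RMRP had 3 counts in all and the 2 named copies of RPPH1 had 9.

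The 2 genes whose log2 CPM followed each counted RNA most closely over the 8 libraries were of different kinds. For MALAT1 they were the U1 variant RNVU1-17 (Pearson r = 0.965) and the Cajal body RNA SCARNA11 (r = 0.947), among 11266 other genes with a mean of at least 100 counts. RNVU1-17 went from 126 and 14 counts to 553 and 377 counts with the TRiC pulldown, and from 342 and 48 to 26 and 55 with the PFD pulldown. For NEAT1 they were the protein-coding LRRC45 (r = 0.991) and BRWD1 (r = 0.989), with 842 and 763 TRiC input counts of LRRC45 against 1360 and 968 pulldown counts. For KCNQ1OT1 they were CERK (r = 0.963) and MTFR2 (r = 0.883), set by 0 to 39 counts of KCNQ1OT1. The 8 points share 2 clones and 4 groups, so these values describe the libraries.

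The libraries held 9523128 to 32637658 counts. PFD pulldown replicate 1 was the smallest at 9523128 and PFD pulldown replicate 2 had 28582306, and TMM factors lay between 0.9643 and 1.023. At these depths 0 counts allow a share of up to 0.0919 to 0.315 CPM of a library's total, which is the limit for RMRP as counted. It sets no limit on RPPH1 or RN7SK. With the exons of release 44 both lie wholly in another same-strand gene, and their reads would get no count. Such limits cover counting error only. Markers of mesenchymal cells (VIM, FN1, CAV1, LGALS1, RUNX2 and TGFBI) had counts in all 8 libraries, while the blood, liver and epithelial markers HBB, PTPRC, ALB and CDH1 had at most 21 counts and EPCAM had 1 to 277.

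**Figure D4:**
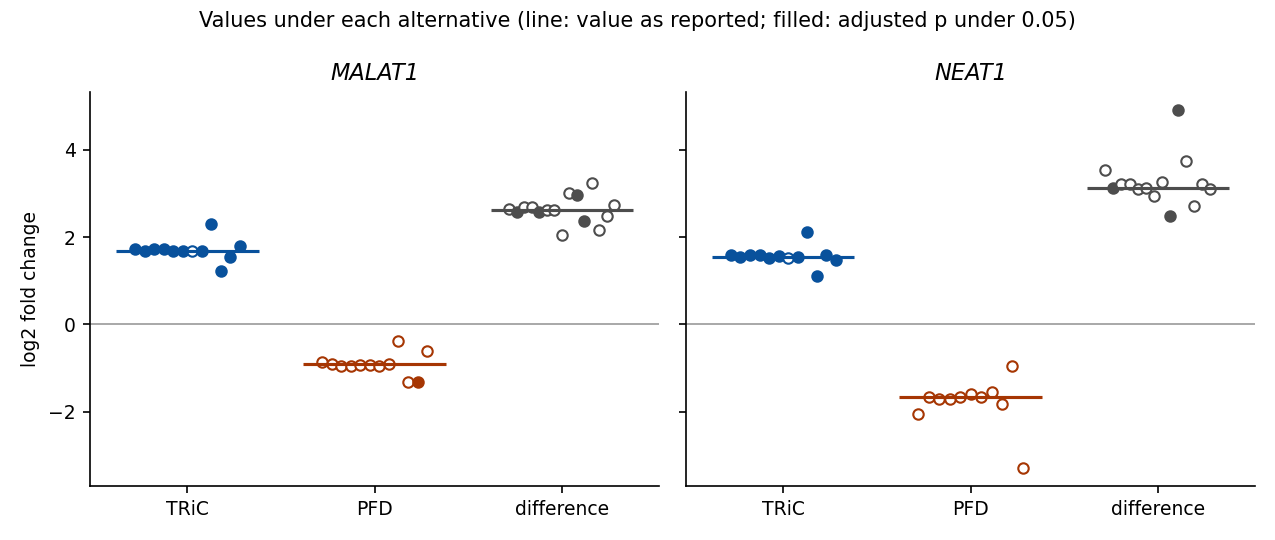
Log2 fold change (vertical axis) of MALAT1 (left) and NEAT1 (right) in the TRiC pulldown, the PFD pulldown and their difference (horizontal axis), with 1 point for each alternative setting and a line at the value given above. Filled points have an adjusted p under 0.05. Points from fits that leave out a library have 1 library in a group and are to be read for effect size only. MALAT1 stays between 1.23 and 2.29 in the TRiC pulldown and between -1.31 and -0.38 in the PFD pulldown.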

How the data were processed

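Ribosome-protected fragments were counted in 8 libraries, 2 per group, in 4 groups. Per the study's methods and the labels, the authors demultiplexed reads with an awk script, extracted molecular identifiers with UMI-tools for the removal of PCR duplicates, removed reads that matched a noncoding RNA library with Bowtie2 2.4.2, aligned the rest to hg38 with STAR 2.7.10a, kept unique alignments and deposited whole-number counts per Ensembl gene. The annotation release and strand column are not given in the sources used here, so positions and names came from GENCODE release 44, in which 60463 of 60664 identifiers were found and 201 were not.

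Each line was fitted alone in edgeR 4.0.16 (R 4.3.3): TMM factors, filterByExpr, quasi-likelihood test, Benjamini-Hochberg adjusted p under 0.05 over all genes tested. The difference between pulldowns was the interaction over all 8 libraries. CPM used TMM-scaled library sizes. Alternatives were DESeq2 1.42.0, other library sizes and filters, 1 fit over all libraries, summed identifiers, a replicate block and leaving out each library. Windows of 29 bases were matched exactly on both strands, without mismatches. Genes of like pattern used log2 CPM with a prior count of 2. The rule for named genes took the members, the called genes of each list (its most abundant gene where none was called), neighbours within 1 kb with at least 100 counts in a library, and the 2 genes of most like pattern. Other genes named, among them uncalled list genes, neighbours with fewer counts and RNA copies, were added after their values were seen. The members and lists were chosen with earlier results of these data known. The labels call the replicates biological without saying which cultures they came from, so p-values measure the spread between these samples. Replicate numbers are shared by input and pulldown, but nothing says that a number marks a shared culture. A gene of the paraspeckle list is not reported here.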

Additional observations from a re-analysis of the deposited data

Results flagged for a closer look

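MALAT1 drew attention because it was higher in both TRiC pulldowns than in both inputs and lower in both PFD pulldowns than in both inputs. How many of all genes separate in the same ways was not counted, so the separation alone does not set MALAT1 apart. The difference between the 2 changes was 2.62 on the log2 scale and did not pass after adjustment (adjusted p = 0.171 in edgeR's test). NEAT1 moved in the same opposite ways, with a difference of 3.13 and an adjusted p of 0.248 in edgeR's test. In PFD pulldown replicate 1 NEAT1 had 3 counts.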

How the results depend on the processing

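Among alternatives with 2 libraries per group, the MALAT1 and NEAT1 calls in the TRiC pulldown held in all except 1 fit over all 8 libraries. That fit called 0 of the 6 RNAs and 31 genes in all against 3444. Over all alternatives, leaving out a library included, the log2 fold changes ran from 1.23 to 2.29 for MALAT1 and from 1.11 to 2.11 for NEAT1. Fits without a library have 1 library in a group and take the spread from the others. Their calls and gene counts, given next, therefore do not show that a call holds. Leaving out each library in turn gave 2 members called throughout in the TRiC pulldown, 0 to 1 in the PFD pulldown and 0 to 2 for the difference, and 1698 (without TRiC input replicate 1) to 4698 genes called in the TRiC pulldown and 71 to 2434 (without PFD pulldown replicate 2) in the PFD pulldown against 34. Without PFD pulldown replicate 1 there were 395. The PFD count was 134 with the replicate block, 438 with DESeq2, 152 with no filter and 83 in 1 fit over all libraries. For the difference, DESeq2 called 2 members and no filter called 1. KCNQ1OT1 ran from -0.73 without TRiC pulldown replicate 1 to 1.82 without replicate 2, and its difference from -3.64 without PFD input replicate 1 to 7.79 without PFD pulldown replicate 1. The cause was not tested in any of these.

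The replicate block left the member calls as they were (MALAT1 1.73 in the TRiC pulldown). Deviations of same-numbered libraries correlated at 0.202 in the CCT4-Halo line and -0.0216 in the PFDN4-Halo line, over 2 pairs each, which does not show that the numbers pair the samples.

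With windows of 25 bases the shares found once were 96.96% for MALAT1, 92.26% for NEAT1, 86.19% for KCNQ1OT1 and 3.289% for RN7SK, and with 33 bases 97.88, 95.72, 91.36 and 13.18%, with RMRP at 100%. The 6 genes of like pattern were the same with a prior count of 0.5. Depth limits KCNQ1OT1 (0 to 39 counts) and NEAT1 in the PFD pulldowns (3 and 47).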
